A study of Mus musculus with 6 samples.

Results

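Fos, Fosb, Jun, Junb, Egr1, Atf3, Ier2, Ier3, Myc and Klf6 are 10 genes of the early transcriptional response. Their transcripts are described here in the livers of WT mice and of mice with a liver-specific deletion of Vps15. They are 10 of the 56305 genes in the table, found by matching gene symbols to Ensembl identifiers. The genes were chosen from the genotype comparison of these same livers, so each difference between genotypes is given as a description with its standard error and without a p-value. Of the 10 genes, 9 passed the filter on low values, which asked for 20 or more normalized counts in 3 or more of the 6 livers, and Fosb did not.

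RNA-Seq was performed on 3 livers of each genotype, WT and Vps15LKO, with 1 library per liver. The donors were male mice of 5 weeks that were fed ad libitum and killed at ZT6, 6 h after lights on. Vps15LKO mice are AlbCre+;Vps15 f/f, so that Cre is driven by the albumin promoter and Vps15, the regulatory subunit of class 3 PI3K, is deleted in hepatocytes. The Cre and floxed alleles of the WT mice are not given in the sources used here. The RNA came from whole liver tissue and was selected by its poly(A) tail, so RNA from other cells of the liver contributed to each value.

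Immediate early genes are transcribed within minutes of a stimulus without the need for new protein, through factors that already sit on their promoters and are switched on by MAP kinases and other signals, and their mRNAs are short-lived. Several of them encode subunits of AP-1, a dimer of Fos, Jun and ATF family proteins that binds DNA. In liver these genes are known for their early induction after partial hepatectomy, injury and cell stress, and Myc, a driver of ribosome production and growth, is induced in the same early phase.

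The sequences before the transcription starts are shown because cAMP response elements and their variants are the textbook AP-1 and CREB sites of Fos and Jun. Windows from the RefSeq promoter set of GRCm38.p6 were used for 7 of the 10 genes (Fos, Fosb, Jun, Junb, Atf3, Klf6 and Ier3). Not every entry of the set was used, so the lack of a window for Egr1, Ier2 and Myc does not mean that they have no entry. Each line gives 120 bases, 5′ to 3′ on the strand of the gene, that end just before the RefSeq start or, where a GENCODE exon reaches further upstream, just before that exon. The RefSeq start of Junb lies upstream of its GENCODE start, so that its window ends 30 bases before the gene coordinates given below. Capitals mark TGACG, the core of the cAMP response element, TGACATCA, the variant known from Jun, CACGTG, the E-box bound by Myc and by the clock factors Bmal1 and Clock, and TATAAA, the TATA box, each searched on both strands.
Jun (chr4:95052223-95052342, minus strand): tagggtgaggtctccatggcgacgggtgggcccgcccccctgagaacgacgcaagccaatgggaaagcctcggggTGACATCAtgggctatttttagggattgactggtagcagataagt
Klf6 (chr13:5861362-5861481, plus strand): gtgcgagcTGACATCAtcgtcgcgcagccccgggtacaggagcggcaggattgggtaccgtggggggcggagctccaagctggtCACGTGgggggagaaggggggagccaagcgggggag
Fos (chr12:85473770-85473889, plus strand): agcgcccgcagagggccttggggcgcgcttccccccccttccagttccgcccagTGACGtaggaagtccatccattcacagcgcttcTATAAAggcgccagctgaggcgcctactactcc
Fosb (chr7:19310052-19310171, minus strand): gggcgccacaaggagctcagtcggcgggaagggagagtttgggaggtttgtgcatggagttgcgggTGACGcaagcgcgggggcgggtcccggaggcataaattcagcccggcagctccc
Junb (chr8:84978749-84978868, minus strand): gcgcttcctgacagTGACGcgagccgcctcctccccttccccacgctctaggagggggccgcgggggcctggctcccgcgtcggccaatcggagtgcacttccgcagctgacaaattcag
Atf3 (chr1:191183341-191183460, minus strand): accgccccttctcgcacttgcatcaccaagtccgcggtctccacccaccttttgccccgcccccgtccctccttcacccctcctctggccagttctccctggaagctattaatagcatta
Ier3 (chr17:35821564-35821683, plus strand): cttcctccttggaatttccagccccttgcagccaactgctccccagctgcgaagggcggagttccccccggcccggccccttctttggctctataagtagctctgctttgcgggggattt

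Jun and Klf6 held the same 8 bases, TGACATCA, which 2.10% of all 32851 RefSeq promoters hold in a window of the same length. The windows of all promoters were fixed at the RefSeq start, while those of Fosb, Atf3, Klf6 and Ier3 were moved upstream of an exon. Fos, Fosb and Junb held TGACG, as did 11.7% of all promoters. Atf3 and Ier3, which showed the largest differences between genotypes below, held none of the 4 marked motifs in these windows, and the Atf3 window lies within an intron of longer Atf3 transcripts. TATAAA was found in Fos (6.34% of all promoters) and CACGTG in Klf6 (3.66% of all promoters). Of 3 further motifs that are not marked, TGANTCA, the AP-1 site, was found in none of the 7 windows (3.41% of all promoters), CCAAT in 3 (21.3%) and GGGCGG in 6 (26.5%). The motifs were picked after the sequences had been seen, and a match describes letters in a window and is not a binding site.

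Across the series the libraries held 16137093 to 18110223 reads on genes, but the size factors that the authors divided by were 0.742 to 0.801 in WT and 1.23 to 1.41 in Vps15LKO libraries, so that a gene with the same share of reads is listed lower in Vps15LKO liver. Of 15430 genes tested with limma on log2(normalized count + 1), 33.5% were called higher and 33.0% lower in Vps15LKO livers. These shares depended on the setting. With all libraries scaled to the same total of reads 66.8% of all genes were called higher and 11.1% lower, and of the 13101 genes with 20 or more normalized counts in every liver, 27.9% were higher and 36.2% lower. A call needed a fold of 1.2 or more and a Benjamini-Hochberg adjusted p below 0.05. Pik3r4, which encodes Vps15, had 508, 573 and 459.7 normalized counts in the WT and 341, 362 and 355 in the Vps15LKO livers, a log2 fold change of −0.54 (limma standard error 0.11, Benjamini-Hochberg adjusted p = 0.0021) that was 0.19 with all libraries scaled to the same total of reads. The reads of the deleted part of the gene were not counted apart. The limma p-values set the difference between genotypes against the spread between livers of a genotype, which limma adjusts by a trend over all genes. With 3 livers in each genotype an exact permutation test of a single gene cannot go below p = 0.1.

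Of the 9 genes tested, 6 met the call rule as higher in Vps15LKO livers (Fos, Jun, Atf3, Klf6, Ier3 and Myc), none as lower, and 3 did not meet it (Junb, Egr1 and Ier2). With the choice of the genes made on this comparison, the count is read beside the 33.5% of all genes called higher and nothing is drawn from it. In 7 of the 10 genes, Fosb included, every Vps15LKO liver was above every WT liver, a pattern held by 36.4% of all genes tested. The median log2 fold change of the 9 genes was 1.75, beside −0.02 over all genes tested.

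**Figure D1:**
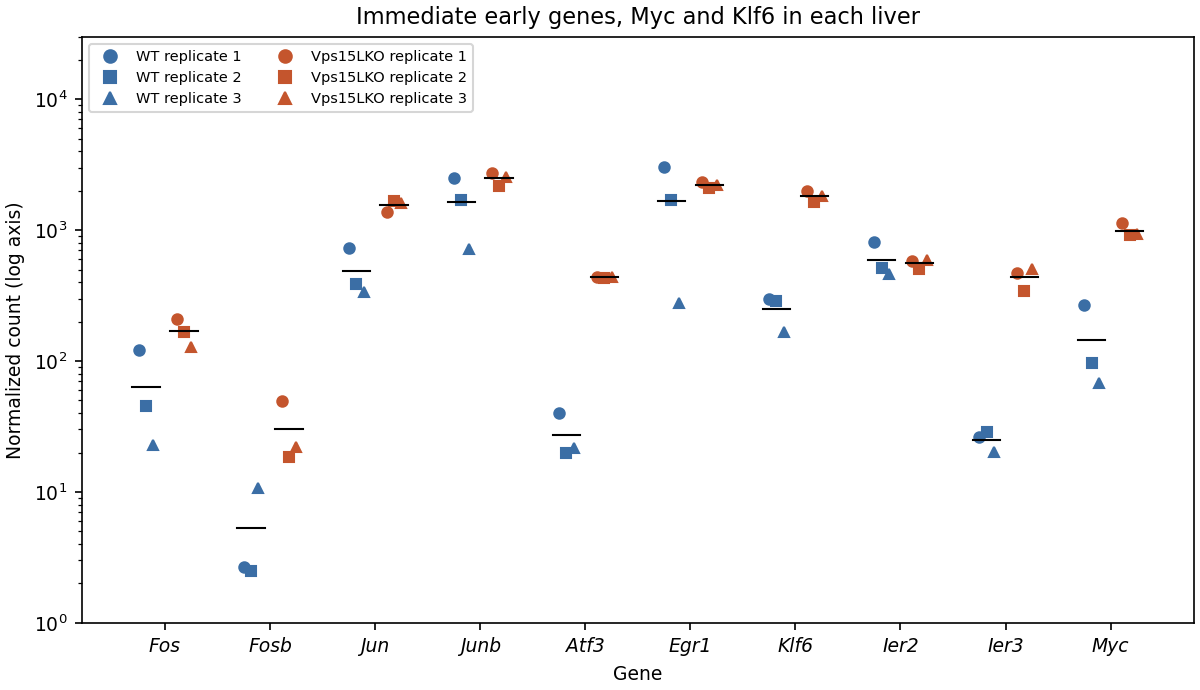
Normalized counts (log axis) of the 10 genes (horizontal axis) in each of 3 WT (blue) and 3 Vps15LKO (orange) livers, with marker shapes for replicates and black bars for the mean of each genotype. The genotypes do not overlap in Fos, Fosb, Jun, Atf3, Klf6, Ier3 and Myc, and they overlap in Junb, Egr1 and Ier2, where WT replicate 3 lies lowest.

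Among the Fos family subunits of AP-1, Fos (ENSMUSG00000021250, chr12:85473890-85477273), the partner that binds DNA together with a Jun protein, had 121, 45.0 and 22.9 normalized counts in WT replicates 1 to 3 and 208, 168 and 129 in the Vps15LKO livers. All 3 Vps15LKO values were above the highest WT value, but the WT livers themselves spanned 5.27-fold. The log2 fold change of Fos was 1.70 (standard error, s.e., 0.51, 95% interval from 0.54 to 2.86), a 3.24-fold higher value. Fos no longer met the call rule without WT replicate 2 (1.62), without Vps15LKO replicate 1 (1.53) or in DESeq2 (1.42). Because these are whole-liver libraries, a change in the RNA per cell and a change in the number of cells of a type cannot be told apart, here or for the genes that follow.

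Fosb (ENSMUSG00000003545, chr7:19302696-19310051), a Fos relative with the same kind of leucine zipper, was close to the limit of detection, with 2.65, 2.50 and 10.8 normalized counts in the WT and 49.6, 18.6 and 21.9 in the Vps15LKO livers. These stand for 2, 2 and 8 reads against 65, 23 and 31 reads. Only 2 Vps15LKO livers reached 20 normalized counts, so Fosb was not among the genes tested, and in the fit without a filter its log2 fold change was 2.41 (s.e. 0.57). The highest WT liver for Fosb was replicate 3, which was the lowest for Fos, so at these read numbers the livers were not ordered alike for both genes.

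Among the Jun subunits, Jun (ENSMUSG00000052684, chr4:95049034-95052222), a gene of 1 exon whose protein is phosphorylated by the JNK kinases, had 736, 388 and 334 normalized counts in the WT and 1380, 1666 and 1601 in the Vps15LKO livers. The genotypes were apart, and the log2 fold change of 1.75 (s.e. 0.26) was a 3.37-fold higher value. Jun shares 232 exon bases with the antisense gene Junos, which averaged 44.0 normalized counts in the WT and 123.1 in the Vps15LKO livers. Whether featureCounts used the strand is not given in the sources used here, so reads of this stretch cannot be assigned to either gene.

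Junb (ENSMUSG00000052837, chr8:84974484-84978718), a Jun relative that can restrain Jun activity, had 2506, 1704 and 723 normalized counts in the WT and 2728, 2164 and 2563 in the Vps15LKO livers. WT replicate 1 lay within the range of the Vps15LKO livers, and WT replicate 3 was far below the other livers. The log2 fold change of Junb was 0.76 (s.e. 0.38, 95% interval from −0.10 to 1.63), which includes 0 and also a doubling. It was 0.26 without WT replicate 3, and Junb met the call rule without WT replicate 1, where it was 1.16. Junb shares 173 exon bases with Prdx2 on the other strand, which averaged 1644.2 normalized counts in the WT and 1690.0 in the Vps15LKO livers.

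Atf3 (ENSMUSG00000026628, chr1:191170296-191218039), a stress-induced transcription factor that pairs with Jun proteins and often represses its targets, had 39.8, 20 and 21.6 normalized counts in the WT and 436, 433 and 439 in the Vps15LKO livers. The 3 Vps15LKO livers were almost identical, with a highest-to-lowest ratio of 1.01, while WT replicate 1 was above the other WT livers, with a ratio of 1.99 between the highest and the lowest. The log2 fold change of 4.02 (s.e. 0.24) was a 16.3-fold higher value, and together with Ier3 it was the largest of the 9. As 1 of the WT livers lay just under 20 normalized counts, Atf3 would not have been tested had every liver been required to reach 20.

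Egr1 (ENSMUSG00000038418), a zinc finger factor that is among the first genes switched on by growth factors, had 3050 normalized counts in WT replicate 1, 1701 in replicate 2 and 278 in replicate 3. The Vps15LKO livers held 2337, 2081 and 2212, inside the WT range. The log2 fold change of 0.97 (s.e. 0.72, 95% interval from −0.68 to 2.62) rested on WT replicate 3, since it was −0.05 without that liver.

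Klf6 (ENSMUSG00000000078, chr13:5861482-5870394), a Krüppel-like zinc finger factor induced early in injured liver, had 299.7, 286 and 167 normalized counts in the WT and 2002, 1626 and 1838 in the Vps15LKO livers. The lowest Vps15LKO liver was more than 5 times the highest WT liver. The log2 fold change of Klf6 was 2.90 (s.e. 0.21), a 7.45-fold higher value.

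The genes named Ier (immediate early response) behaved differently from each other. Ier3 (ENSMUSG00000003541, chr17:35821684-35822923), which encodes a small protein that modulates survival and ERK signalling, had 26.5, 28.7 and 20.2 normalized counts in the WT and 470.4, 344 and 502 in the Vps15LKO livers. The lowest Vps15LKO liver was more than 10 times the highest WT liver, and the WT livers were close to each other. The difference of Ier3 was 4.07 on the log2 scale (s.e. 0.20), a 16.8-fold higher value.

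Ier2 (ENSMUSG00000053560, chr8:84661331-84662852), a gene of 1 exon whose protein acts in the nucleus, had 805, 518 and 466 normalized counts in the WT and 576, 506 and 587 in the Vps15LKO livers. The genotypes overlapped, and the log2 fold change of −0.06 (s.e. 0.19) had a 95% interval from −0.50 to 0.37. With all libraries scaled to the same total of reads, the log2 fold change of Ier2 was 0.66 and its direction turned, while the median of all genes moved by 0.72.

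Myc (ENSMUSG00000022346, chr15:61985391-61990374), the bHLH factor that pairs with Max to activate growth genes, had 268, 96.2 and 67.4 normalized counts in the WT and 1124, 912 and 934 in the Vps15LKO livers. WT replicate 1 held nearly 4 times the value of replicate 3, and still all Vps15LKO livers were more than 3 times higher than it. The log2 fold change of Myc was 3.02 (s.e. 0.42), an 8.13-fold higher value.

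**Figure D2:**
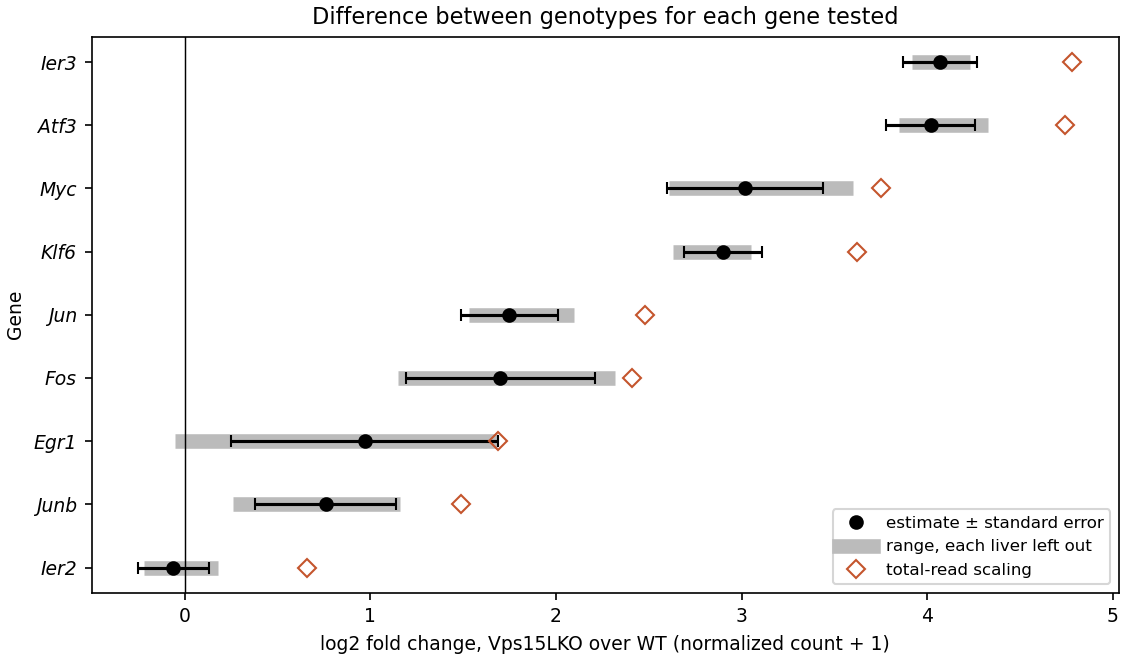
Log2 fold change of Vps15LKO over WT livers (horizontal axis) for the 9 genes tested, as estimates with standard errors (black), the range when each liver was left out in turn (grey bars) and the estimate with all libraries scaled to the same total of reads (open diamonds). Ier3 (4.07), Atf3 (4.02), Myc (3.02) and Klf6 (2.90) lie farthest to the right, and the grey bars of Egr1 and Ier2 reach over 0.

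Compared per kilobase of exon, which allows levels of different genes to be set side by side, the order of the genes differed between genotypes. In WT livers Junb was the highest with a mean of 715 normalized counts per kilobase, followed by Ier2 (392), Egr1 (374), Jun (152), Klf6 (57.2), Myc (52.9), Fos (26.7), Ier3 (22.2), Atf3 (12.6) and Fosb (0.851). The ranges over livers of neighbours in this order overlapped for all neighbours other than Jun and Klf6, and Atf3 and Fosb. In Vps15LKO livers Junb was again the highest, with 1080.0 normalized counts per kilobase, and its range did not overlap that of the next gene. Egr1 (493), Jun (486), Klf6 (415), Ier3 (388), Ier2 (366) and Myc (364) followed as a group in which the ranges of neighbours overlapped. Atf3 (202), Fos (71.5) and Fosb (4.82) lay below this group and apart from each other. Per kilobase, Ier3 thus stood among Klf6, Ier2 and Myc in Vps15LKO livers and among Fos and Atf3 in WT livers. The exon length of Fosb includes a retained intron, which lowers its level per kilobase.

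The WT livers differed from each other more than the Vps15LKO livers did in 9 of the 10 genes, as is the case for 60.2% of all genes tested. Egr1 had the widest spread, with an 11-fold range in WT, and the SD of its log2 values in WT (1.80) was larger than that of 99.9% of the genes tested. In the Vps15LKO livers the SD of Egr1 was 0.08, below the median of 0.14 over all genes tested. The WT SD was 1.18 for Fos, 1.03 for Myc, 0.92 for Junb and 0.60 for Jun, beside a median of 0.18 over all genes tested, and in Vps15LKO livers these genes had SDs of 0.34, 0.16, 0.17 and 0.14. Ier3 was the exception, with 0.25 in WT and 0.29 in Vps15LKO livers.

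WT replicate 1 was the highest WT liver in 8 of the 10 genes, as in 36.4% of all genes tested, and WT replicate 3 was the lowest in 8, as in 38.3% of all genes tested. In 4 of the genes (Fos, Junb, Egr1 and Myc) WT replicate 1 held at least 3 times the value of WT replicate 3, a ratio that 150 genes (0.972% of those tested), genes with few reads included, reached. Among the Vps15LKO livers, replicate 1 was the highest in 6 of the 10 genes (23.5% of all genes tested) and replicate 2 the lowest in 8 (30.7%).

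**Figure D3:**
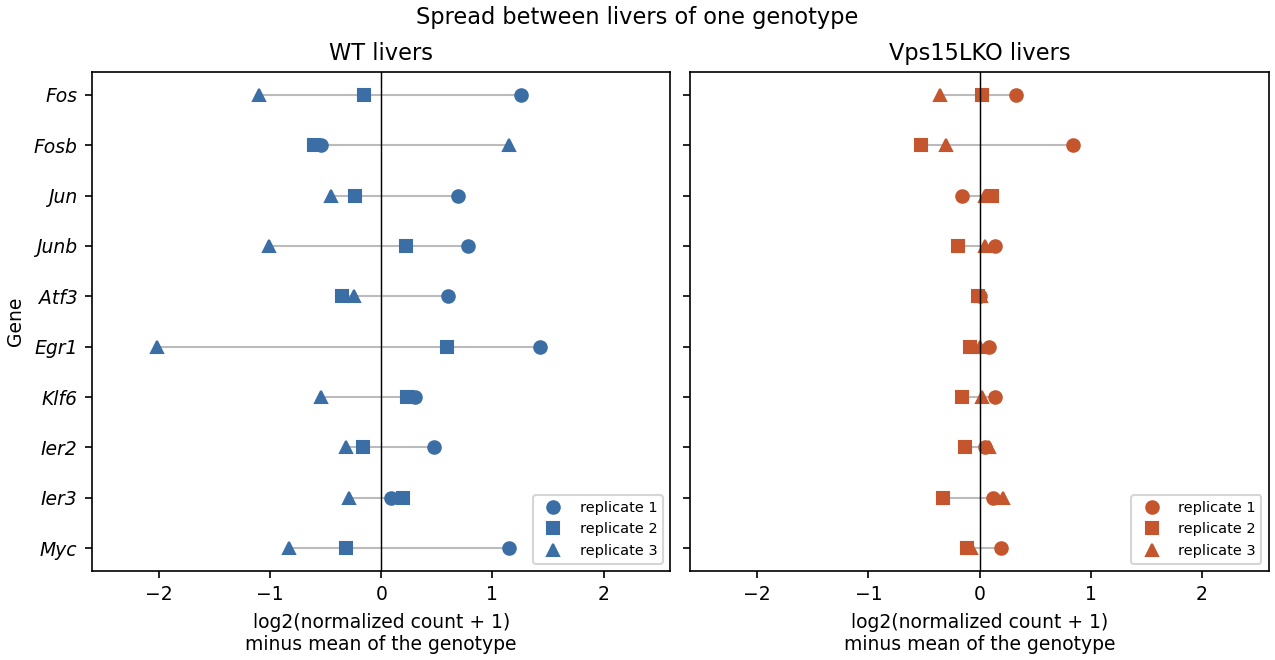
Deviation of each liver from the mean of its genotype in log2(normalized count + 1) (horizontal axis) for the 10 genes, with WT livers on the left and Vps15LKO livers on the right. WT replicate 3 lies far to the left in Egr1, Fos, Junb and Myc, where WT replicate 1 lies farthest to the right, and the Vps15LKO livers lie close together in all genes but Fos, Fosb and Ier3.

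The surrounding genes were taken from lists written from textbook knowledge, but with earlier results of these data known, so the counts below are descriptions. Of 42 other immediate early genes, 40 were tested, 26 were called higher, 5 lower and 9 not called, where 33.5% of all genes were called higher and 33.0% lower. Among the 26 higher were 6 genes (Egr2, Egr3, Nr4a3, Dusp2, Arc and Ptgs2) with every WT liver under 20 normalized counts, which passed the filter only through the Vps15LKO livers and so had to differ. With 20 or more in every liver, 19 of 33 were called higher and 5 lower, beside 27.9% and 36.2% of all genes. With all libraries scaled to the same total of reads the counts over the 40 genes were 30 higher and 1 lower (Errfi1, −1.77), beside 66.8% and 11.1% of all genes, so that Zfp36 and Csrnp1 below were no longer called lower. In 8 genes of the list WT replicate 1 was at least 3 times WT replicate 3. Of these, Arc, Egr3 and Dusp2 had 1, 1 and 5 reads in WT replicate 1, and the others were Nr4a1, Klf10, Gadd45g, Phlda1 and Dusp1, the last an ERK and JNK phosphatase with 1742, 831 and 550.0 normalized counts in WT.

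Egr2, a relative of Egr1, had 3.98, 2.50 and 1.35 normalized counts in WT livers, 3 reads or fewer in each library, and 159, 143 and 130.1 in Vps15LKO livers, at least 36.7-fold higher than 3 reads in every WT library. It was tested only because its Vps15LKO livers passed the filter, so no p-value is given. Nr4a3, an orphan nuclear receptor, Arc and Ptgs2, the inducible cyclooxygenase, were likewise at 3 reads or fewer in every WT library and were at least 10-, 6.82- and 10.7-fold higher. Ccn2, a matricellular growth factor and target of YAP, rose from 74.3, 89.9 and 97.1 to 865, 555 and 1337 normalized counts (log2 fold change 3.30, s.e. 0.28), and Gadd45b, a stress sensor, rose by a log2 fold change of 2.65 (s.e. 0.34).

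Some early genes fell instead. Errfi1, a feedback inhibitor of the EGF receptor, fell from 22964, 14273 and 19543 to 4611, 3186 and 2429 normalized counts (log2 fold change −2.50, s.e. 0.25). Zfp36, which speeds the decay of mRNAs with AU-rich elements, had 4419, 3007 and 1893 in WT and 1574, 1681 and 1395 in Vps15LKO livers (log2 fold change −0.92, s.e. 0.26), and Csrnp1, a nuclear factor, had a log2 fold change of −0.75 (s.e. 0.19). The early genes thus did not all differ in one direction, with Fos, Jun, Atf3, Ier3 and Ccn2 higher and Errfi1 lower with the deposited scaling and with equal totals of reads.

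The AP-1 and CREB relatives that are not among the 10 genes were higher in 9 of 15 cases, lower in 3 and not called in 3, where 33.5% of all genes were higher and 33.0% lower. Of the 9, 3 (Fosl1, Batf and Batf3) passed the filter only through the Vps15LKO livers, and of the 11 genes with 20 or more normalized counts in every liver 5 were higher and 3 lower, where the shares over all genes were 27.9% and 36.2%. Fosl1, a Fos relative without a transactivation domain, had 2.65, 0 and 4.04 normalized counts in the WT and 124, 112 and 116 in the Vps15LKO livers, at least 29.9-fold higher than 3 reads in every WT library. Jdp2, which pairs with Jun and represses, rose from 30.5, 16.2 and 18.9 to 97.0, 101 and 112 (log2 fold change 2.24, s.e. 0.25), and Maff, a small Maf protein, rose by 2.12 (s.e. 0.39) on the log2 scale. Crem, a cAMP-responsive modulator, Mafg and Atf2 were called lower, with log2 fold changes of −0.50, −0.35 and −0.27. Only 1 gene of the list was called lower without WT replicate 2, without Vps15LKO replicate 1, without Vps15LKO replicate 3, and with upper-quartile or quantile scaling, and 2 were with edgeR, limma voom or TMM scaling. With all libraries scaled to the same total of reads, 14 of the 15 genes were called higher and none lower, where 66.8% of all genes were higher, so these 3 were no longer called lower.

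Upstream of these genes stand serum response factor, its ternary complex partners and the MAP kinases. Of 18 such genes, 7 were called higher and 6 lower, shares near the 33.5% and 33.0% of all genes, with a median log2 fold change of 0.17. Mapk3, which encodes ERK1, rose from 1239.8, 1107 and 923 to 3181, 2939.9 and 3922 normalized counts (log2 fold change 1.62, s.e. 0.14). Elk3, a ternary complex factor, and Rps6ka3, the RSK2 kinase, rose by 1.07 and 0.90 on the log2 scale. Map2k2 (MEK2), Mapk14 (p38 alpha) and Mapk8 (JNK1) had log2 fold changes of −0.53, −0.41 and −0.40, and with all libraries scaled to the same total of reads 17 of the 18 were called higher and none lower, beside 66.8% and 11.1% of all genes.

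The feedback inhibitors of these kinases, the MAP kinase phosphatases, Sprouty proteins and Nab repressors, were called higher in 10 of 13 cases, beside 33.5% of all genes. Only 9 of the 13 had 20 or more normalized counts in every liver, and of these 6 were called higher, beside 27.9% of all genes. With equal totals of reads 12 of the 13 were called higher and none lower, beside 66.8% and 11.1% of all genes. With all 6 livers and the deposited scaling limma called none lower and DESeq2 called 1. At an unadjusted p under 0.05, 1 was lower in limma. The edgeR fit, which used TMM scaling, called none lower. The limma fit called 2 lower without WT replicate 3 and 1 with quantile scaling. Dusp4, a nuclear phosphatase, had 10.6, 15.0 and 20.2 normalized counts in the WT and 259, 175 and 214 in the Vps15LKO livers (log2 fold change 3.76, s.e. 0.26). Dusp8, a phosphatase that acts on JNK and p38, had 6.63, 20 and 52.6 against 207, 246 and 234 (3.49, s.e. 0.58), and Dusp5, which acts on nuclear ERK, 30.5, 18.7 and 32.4 against 257, 217 and 214 (3.06, s.e. 0.22). The AU-rich element binding proteins set the lifetime of mRNAs such as those of Fos and Myc. Of these 8 genes 1 was called higher, 2 lower and 5 not called, where 33.5% of all genes were higher and 33.0% lower. With all libraries scaled to the same total of reads 7 were higher and none lower (66.8% and 11.1% of all genes). With quantile scaling 4 were higher and 1 lower, beside 4692 higher and 5801 lower of all 15430 genes. The number called lower was also 1 without WT replicate 1 and with upper-quartile scaling. Tia1, which holds back translation, had a log2 fold change of 1.0, and Zfp36 and Tial1 had −0.92 and −0.38.

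Among the partners and antagonists of Myc, 4 of 14 tested were higher, 4 lower and 6 not called, near the shares of all genes (33.5% and 33.0%), with a median log2 fold change of 0.05. Max, the partner that Myc needs to bind DNA, had 452, 425 and 514 normalized counts in the WT and 757, 622 and 815 in the Vps15LKO livers (log2 fold change 0.65, s.e. 0.13), and Mnt, which competes with Myc for Max, rose by 0.82. Mlxipl, the glucose-responsive factor ChREBP, fell from 5293, 5091 and 4489 to 1116, 1389 and 895 (log2 fold change −2.15, s.e. 0.16), together with its partner Mlx (−0.77), while Mlxip, another Mlx partner, rose by 0.86. Mxi1, a Max partner that opposes Myc, had a log2 fold change of −0.74. With all libraries scaled to the same total of reads 11 were called higher and 1 lower (Mlxipl, −1.42), where 66.8% of all genes were higher.

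Of 24 genes known as targets of Myc, 5 were called higher, 7 lower and 12 not called, where 33.5% of all genes were higher and 33.0% lower, and the median log2 fold change was −0.10, where all genes had −0.02. Ccnd2, a cyclin of the early cell cycle, Nop58, a factor of ribosome assembly, and Npm1, nucleophosmin, had log2 fold changes of 1.27, 0.89 and 0.60. Hspd1 and Hspe1, the mitochondrial chaperonin and its cofactor, and Ldha, lactate dehydrogenase A, had −0.84, −0.54 and −0.47. With all libraries scaled to the same total of reads 19 were called higher and none lower, beside 66.8% and 11.1% of all genes, with a median of 0.63 where that of all genes was 0.70.

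Of 13 other members of the Klf family that were tested, 5 were called higher, 5 lower and 3 not called, near the 33.5% and 33.0% of all genes, and of the 5 higher Klf5 passed the filter only through the Vps15LKO livers. There were 7 higher and 4 lower (Klf1, Klf9, Klf12 and Klf15) when all libraries were scaled to the same total of reads, beside 66.8% and 11.1% of all genes. Klf4, Klf7 and Klf16 had log2 fold changes of 1.96, 1.13 and 0.78, and the first of them had 53.0, 53.7 and 48.5 normalized counts in the WT and 214, 159.6 and 248 in the Vps15LKO livers. Klf15, a regulator of amino acid catabolism and gluconeogenesis, fell from 4406, 3687 and 3873 to 779, 882 and 659 normalized counts (log2 fold change −2.37, s.e. 0.13). Klf9, which is induced by glucocorticoids, and Klf12 had log2 fold changes of −2.26 and −1.29. Per kilobase of exon, the level of Klf6 (57.2) was below those of Klf9 (748) and Klf15 (1429) in WT livers, and in Vps15LKO livers the level of Klf6 (415) was above those of Klf9 (155) and Klf15 (277).

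**Figure D4:**
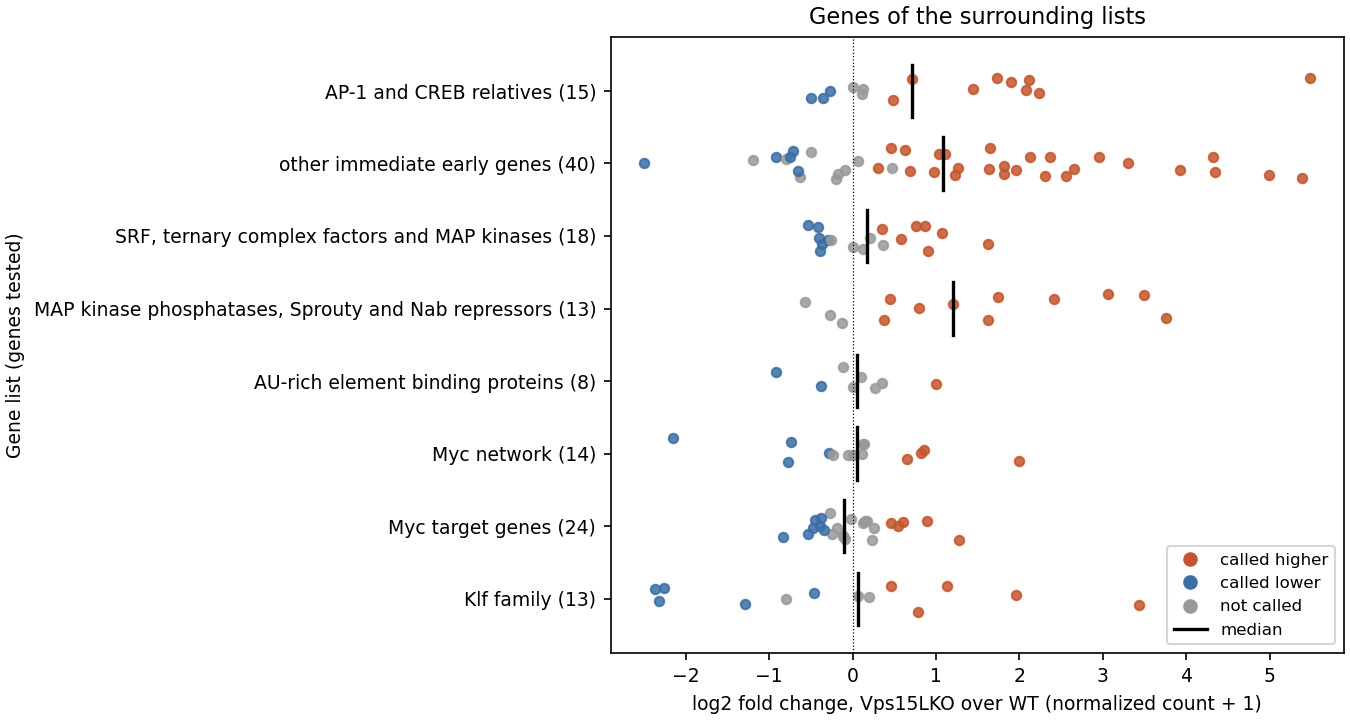
Log2 fold change of Vps15LKO over WT livers (horizontal axis) for each tested gene of 8 lists (rows, with the number tested), coloured by call, with a black bar at the median of each list. The medians of the other immediate early genes (1.08), the phosphatases and Sprouty genes (1.2) and the AP-1 relatives (0.71) lie to the right of 0 and take in genes with under 20 normalized counts in some WT livers, and those of the Myc targets (−0.10) and the Klf family (0.07) lie near 0. The leftward and rightward position of all points depends on the scaling, which moves the median of all genes by 0.72.

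The genes with profiles most like those of Fos, Myc and Klf6 were found by the root mean square difference between log2(normalized count + 1) values, each centred on its mean over the 6 livers, among 15429 genes. For Fos these were Kcnip3 (0.26), Nr4a1 (0.29) and Gm15895 (0.31). Nr4a1, an early induced orphan nuclear receptor, had 281, 98.7 and 70.1 normalized counts in the WT and 386, 348 and 201 in the Vps15LKO livers, with the same order of the WT livers as Fos. For Myc these were Mir7676-1 (0.20), Hdx (0.23) and Hpgds (0.30), of which Hpgds, a prostaglandin D synthase, had 34.5, 17.5 and 16.2 in WT and 252, 194 and 202 in Vps15LKO livers. Mir7676-1 had only 9.28, 3.75 and 2.70 and Hdx 5.30, 1.25 and 1.35 normalized counts in WT livers. Both passed the filter only through the Vps15LKO livers, so their likeness to Myc rests on few WT reads. For Klf6 they were Neto2 (0.068), Dapp1 (0.12) and Slc35e4 (0.14), all with at most 22.5 normalized counts in WT livers. Neto2 and Slc35e4 likewise passed the filter only through the Vps15LKO livers.

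Markers of macrophages, stellate cells and cholangiocytes were higher in Vps15LKO livers, as were Fos, Jun, Atf3, Ier3, Myc and Klf6. Macrophage markers were higher in 11 of 13 cases, beside 33.5% of all genes, and their summed level was 8689 to 10194 normalized counts in the WT and 33439 to 34655 in the Vps15LKO livers. Cd68 and Ccr2, the latter a marker of recruited monocytes, had log2 fold changes of 3.15 and 3.57, and of the resident Kupffer cell markers, Marco (1.08) and Vsig4 (0.99) were called higher while Clec4f (0.40) and Timd4 (−0.62) were not called. Stellate cell markers were higher in 9 of 9 (sum 7461 to 7903 in WT, 29397 to 34008 in Vps15LKO livers), with Col1a1 at 4.39, and cholangiocyte markers in 7 of 7 (sum 1269 to 1419 in WT, 12339 to 23807 in Vps15LKO livers), with Spp1 at 4.69. Of the 7 cholangiocyte markers 4 had 20 or more normalized counts in every liver, and Cftr passed the filter only through the Vps15LKO livers.

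Of 7 endothelial markers the limma fit called 4 higher and 3 lower, with overlapping sums (7136 to 7824 in WT, 6379.6 to 7949 in Vps15LKO livers). Their direction depended on the setting, as 5 were called higher and none lower with equal totals of reads, and edgeR called 1 lower. Over all genes 33.5% were higher and 33.0% lower, and 66.8% and 11.1% with equal totals of reads. Of 5 neutrophil markers, S100a8 and S100a9 were tested, both of which passed the filter only through the Vps15LKO livers, so only the sums are given, 13.5 to 22.5 in WT and 115 to 190.3 in Vps15LKO livers. Ly6g was listed at 0 in all WT livers. Of 6 lymphocyte markers, 4 were tested and none had 20 or more normalized counts in every liver, and their sums were 83.5 to 113 in WT and 159 to 196 in Vps15LKO livers. Hepatocyte markers marked the tissue in all livers, and with the deposited size factors all 9 were lower in every Vps15LKO liver than in every WT liver, with sums of 3346173 to 3696578 in WT and 1136969 to 1667122 in Vps15LKO livers. The limma fit called 6 of the 9 lower, beside 33.0% of all genes, edgeR called 7, and DESeq2 and limma voom called all 9. As shares of reads, Trf (1.59 to 1.82% in WT, 1.62 to 1.92% in Vps15LKO livers) and Ahsg (0.981 to 1.34% and 1.12 to 1.25%) overlapped between genotypes, and with equal totals of reads 6 of the 9 were called lower, beside 11.1% of all genes. Alb, the gene whose promoter drives Cre, had a log2 fold change of −1.48 with a standard error of 1.38 in the limma fit, which did not call it, and was called lower by edgeR, DESeq2 and limma voom. The part of these cell types in the levels of Fos, Jun, Atf3, Ier3, Myc and Klf6 was not tested.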

How the data were processed

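After filtering, the authors aligned the reads with HISAT2 to GRCm38, used featureCounts (Subread) for counts per gene and normalized each library with 1 size factor from DESeq2. Tool versions and the strand setting are not given in the sources used here. The deposited values are therefore a signal, normalized counts for 56305 genes without a filter. Divided by the value of 1 read, 100% of the values of every library came out whole (within 0.01 reads), so whole reads were recovered, and edgeR on these reads called 10205 genes.

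Genes with 20 or more normalized counts in 3 or more of 6 livers were kept (15430), and log2(normalized count + 1) was fitted in R 4.3.3 by limma 3.58.1, with its functions lmFit and eBayes and a trend of the variance on the mean. The p-values were adjusted by Benjamini-Hochberg over these genes. The log2(normalized count + 1) scale understates the change of low genes. Calls needed a fold of 1.2 or more and an adjusted p below 0.05. The procedure was tested on simulated data. Counting error is part of the spread between livers and has no interval of its own. Exon lengths come from GENCODE M21 and promoters from RefSeq.

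The 10 genes and the 15 gene lists were chosen with earlier results of these data known. The text names the 10 genes, in each list the 3 called genes with the largest rise and the 3 with the largest fall among those averaging 50 or more normalized counts, cell type markers, and the 3 genes most like Fos, Myc and Klf6. Nr4a3, Arc, Ptgs2, Egr3, Dusp2, Batf, Batf3, Klf1, Klf5, Klf10, Gadd45g, Phlda1, Dusp1, Prdx2 and Junos fall outside this rule and were named after their values were seen. Where every library of a genotype had 3 reads or fewer, folds are bounds against 3 reads per library.

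As alternatives, pseudocounts of 0.1 and 10, a looser and a stricter filter, scaling by equal totals of reads, TMM, upper quartile or quantiles, limma with no trend, limma voom, DESeq2 1.42.0, edgeR 4.0.16, each liver left out in turn and a replicate block were tried. The edgeR and limma voom fits used TMM scaling and not the deposited size factors. Tables and plots were made with Python 3.11.15, numpy 2.4.6, pandas 2.3.3 and matplotlib 3.10.9.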

Additional observations from a re-analysis of the deposited data

How the results depend on the processing

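Scaling to the same total of reads moved the median of all genes by 0.72 and upper-quartile scaling by 0.12 on the log2 scale. The number of the 9 genes called higher was 6 and ran from 5 to 9 over 19 alternatives. Fos was not called with DESeq2, without WT replicate 2 or without Vps15LKO replicate 1, and Junb was called with quantile scaling, without WT replicate 1 and with equal totals of reads, where all 9 were called higher, as were 66.8% of all genes. Without single livers the log2 fold change ran from 1.15 to 2.32 for Fos, 0.26 to 1.16 for Junb, −0.05 to 1.68 for Egr1 and 2.61 to 3.60 for Myc, in each case lowest without WT replicate 3, and Egr1 was 0.45 with edgeR and 0.40 with DESeq2. The other immediate early genes called lower, 5 in the text, numbered 1 with equal totals of reads, 2 with quantile scaling and 9 with the replicate block. Replicate numbers do not pair the livers, since the deviations of same-numbered livers correlated at −0.00992, −0.0114 and 0.0485, and the block left 10048 genes called, beside 10262 without it. Requiring 20 normalized counts in every liver removed Atf3.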
